A study of Homo sapiens with 6 samples.

Results

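The genes described here encode the subunits of the mitochondrial respiratory chain and ATP synthase that are carried in the nucleus. They were taken by name from the table of PRO-seq counts that the authors deposited: symbols of the NDUFA, NDUFB, NDUFC, NDUFS and NDUFV families with NDUFAB1, of the UQCR, COX4 to COX8, ATP5F, ATP5M and ATP5P families, SDHA to SDHD, CYC1 and CYCS, with at least 10 counts in 1 or more libraries. Of 92 intervals with such names, 8 named as pseudogenes and 2 named as antisense transcripts were left out, which left 82 of the 20333 intervals in the table. All 82 passed the filter on low counts. One of them, NDUFA6-DT, is a noncoding transcript that starts beside NDUFA6 and meets the naming rule, so 81 members are subunit genes: 36 of complex I, 4 of complex II, 9 of complex III, cytochrome c (CYCS), 13 of complex IV and 18 of complex V. NDUFA4 and its paralog NDUFA4L2 were counted with complex IV, where the NDUFA4 protein resides, and COX7A2L, which joins complexes III and IV into supercomplexes, was also counted there.

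PRO-seq labels the RNA that engaged RNA polymerase is making in permeabilised cells, so a count measures transcription in progress over a gene and not the amount of its mRNA or protein. T47D, an oestrogen receptor positive and HER2 negative luminal breast cancer line, was treated for 5 h in growth factor-complete medium with DMSO, with 500 nM GDC0068, a catalytic inhibitor of the kinase AKT, or with 100 nM INY-05-040, an AKT degrader that the labels call Degrader. The concentrations differ because they were set to give similar suppression of signalling below AKT. Each arm has 2 libraries, 1 from each of 2 independent experiments on this 1 cell line.

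In the respiratory chain, electrons from NADH enter at complex I and electrons from succinate at complex II. They pass through ubiquinone to complex III and through cytochrome c to complex IV, which reduces oxygen. Complexes I, III and IV pump protons across the inner membrane, and complex V, the ATP synthase, uses the gradient to make ATP. Complex II is encoded wholly in the nucleus, while the other complexes also hold subunits encoded in mitochondrial DNA, which were not analysed here. The nuclear genes lie scattered over the genome and are known targets of the factors NRF1, GABP, YY1 and the oestrogen-related receptors, with the PGC-1 family as coactivators. The 82 members lie on 22 chromosomes, and chromosome 19 holds the most, with 10.

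The libraries held 25371819 to 32192576 counts. A member had between 45 and 4151 counts in a library, and the median member had 774 to 989, where counting error alone is 3.59% to 3.18%. All 10 luminal breast markers listed (among them ESR1, GATA3 and KRT8) had at least 10 counts. Their summed level lay between 5610 and 5980 CPM in the 6 libraries. For the markers in this paragraph CPM are counts scaled to the total of each library. Elsewhere CPM are counts scaled to the effective size of each library. Of 4 leukocyte markers only CD68 was in the analysis, at 77.5 to 83.5 CPM under DMSO, 62.7 to 67.5 under GDC0068 and 55.1 to 64.2 under Degrader; its part in any result was not tested. Basal, fibroblast and endothelial markers were not analysed here.

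Against DMSO, few respiratory chain genes were called in the fit with a term per arm, and the changes were small. More were called with the experiment added as a block, as given below. Under Degrader, 6 of the 82 members fell and none rose at an adjusted p under 0.05 (edgeR quasi-likelihood test, Benjamini-Hochberg over 19902 genes), where 15.3% of all genes tested were called, 7.88% lower and 7.39% higher. The members' share, 7.32%, lies below the share over all genes in either direction and close to the share of all genes called lower. A mean of at least 10 CPM was reached by 75 of the members. Of the 13897 genes at that level 19.8% were called, 10.3% lower and 9.49% higher. The members' share lies below the share of these genes called lower. The 6 were NDUFB10 and NDUFS8 of complex I, UQCRQ of complex III, and ATP5MC1, ATP5MC2 and ATP5MG of complex V. Under GDC0068, 1 member was called, NDUFA2 of complex I, which rose, where 3.58% of all genes were called, 1.7% higher and 1.88% lower. Of the genes of at least 10 CPM 4.79% were called, 2.29% higher and 2.5% lower. Without DMSO replicate 1, or without Degrader replicate 2, NDUFB10 was the 1 member still called under Degrader, and without either DMSO library or GDC0068 replicate 2 no member was called under GDC0068. Without GDC0068 replicate 1, NDUFA2 was not called and 2 other members were. The comparisons with DMSO share the same 2 control libraries.

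Libraries of the same experiment deviated together from their arm means, and with the experiment as a block more genes passed in each comparison. Under Degrader 18 members were then called, 13 lower and 5 higher, against 30.7% of all genes (15.7% lower and 15.1% higher). Under GDC0068 15 members (18.3%) were called, 12 lower and 3 higher, against 17.8% of all genes (8.91% lower and 8.87% higher). By direction, 14.6% of the members were called lower under GDC0068 with the block, above the 8.91% of all genes, and 3.66% higher, below the 8.87%. Under Degrader 15.9% were called lower with the block, near the 15.7% of all genes, and 6.1% higher, below the 15.1%. Among genes of at least 10 CPM these shares under Degrader were 19.9% and 19.0%, both above those of the members. Under GDC0068 11.9% of the genes at that level were called lower with the block, closer to the 14.6% of the members and still below it. In either direction 22.9% of the genes at that level were called under GDC0068, above the 18.3% of the members.

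The median log2 fold change over the 82 members was -0.08 under Degrader and -0.05 under GDC0068, while the medians over all genes tested were 0.00 and 0.01. Under Degrader 56 of the 82 lay below 0, or 68.3%, compared with 50.3% of all genes. Under GDC0068 53 lay below 0, or 64.6%, compared with 47.4% of all genes. Taken within each experiment, the median under Degrader was -0.066 in the first and -0.089 in the second, and under GDC0068 it was -0.027 and -0.066. The members' counts summed to 3040 and 3064 CPM in the DMSO libraries, 2942 and 2919 with GDC0068, and 2938 and 2911 with Degrader. All 4 drug libraries thus lay below both DMSO libraries, with a mean difference of -3.99% for GDC0068 and -4.19% for Degrader. With 2 libraries in an arm no permutation test can pass the 0.05 threshold, and the sums were not tested. CPM are shares of a library, so a change common to most genes would not appear in them.

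**Figure D1:**
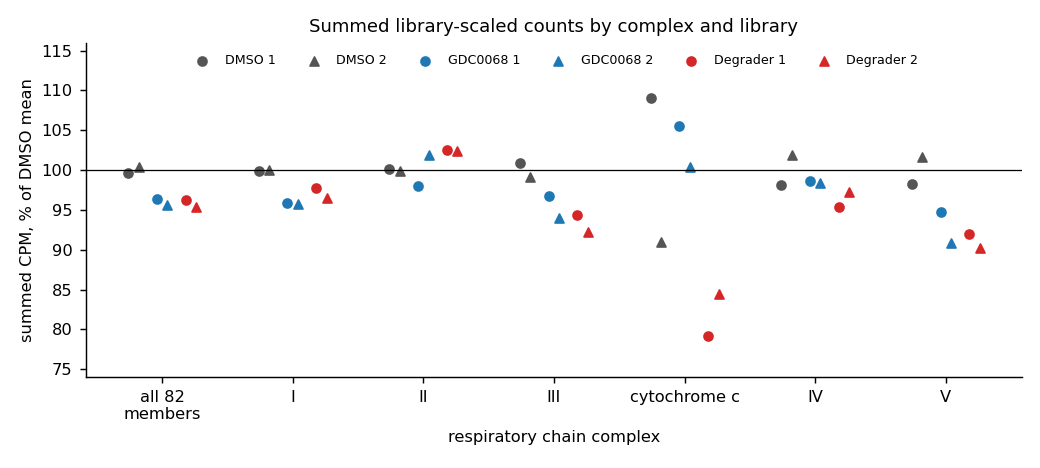
Summed CPM of the members of each complex in each library, as a percentage of the mean of the 2 DMSO libraries (y axis, starting above 0; circles, experiment 1; triangles, experiment 2). Complex V lay lowest among the multi-subunit complexes, at -8.88% for Degrader and -7.18% for GDC0068 relative to DMSO, while complex II did not lie below DMSO with Degrader.

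The complexes differed in how far they lay from DMSO. Complex V had the lowest median among the multi-subunit complexes, -0.12 under Degrader and -0.11 under GDC0068, with 14 and 16 of its 18 genes below 0. Complex III had medians of -0.10 and -0.03, complex IV of -0.08 and -0.04, and complex I of -0.05 under both drugs. Complex II had a median of 0.05 under Degrader and -0.01 under GDC0068. These are descriptions of 4 to 36 genes each, and differences between complexes were not tested.

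**Figure D2:**
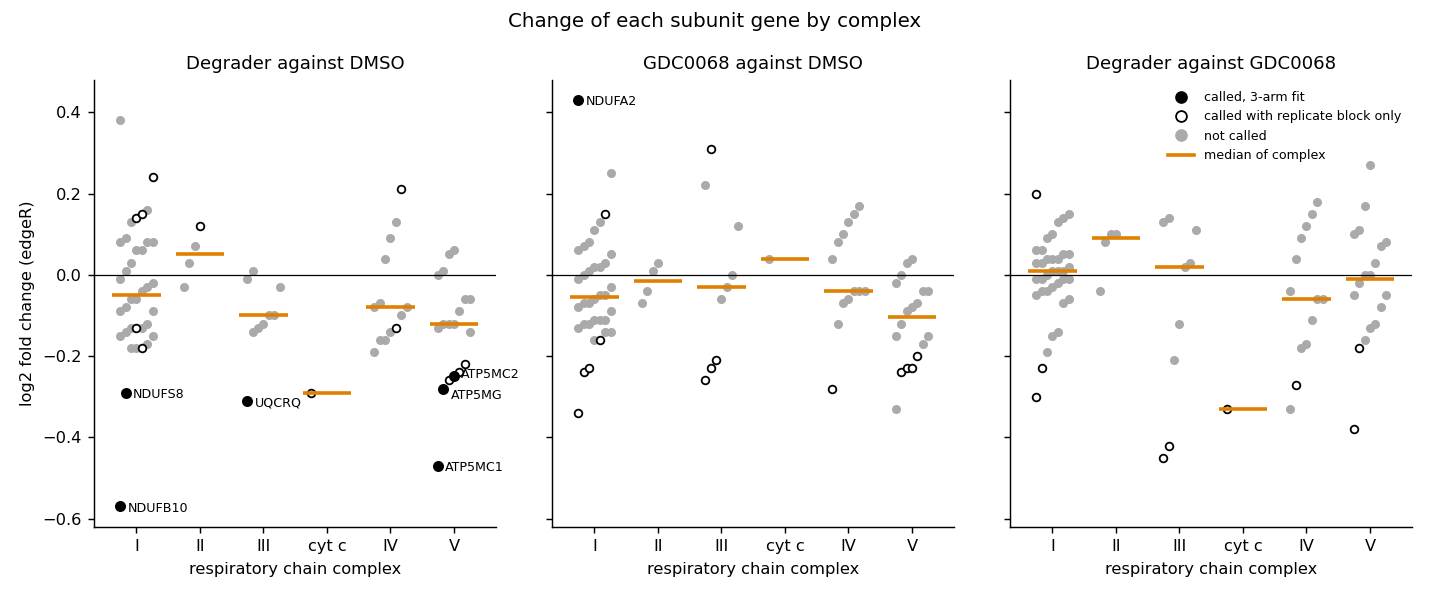
Log2 fold change (y axis) of each of the 81 subunit genes, grouped by complex (x axis), in the 3 comparisons. Filled black points passed an adjusted p under 0.05 in the fit without a block, open points only with the experiment as a block, grey points in neither; orange lines are medians, and most points lie within 0.2 of 0.

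Promoter windows from RefSeq (GRCh38.p14, 250 bases before to 50 after each start) were matched to 67 members, 64 by symbol and 3 by synonym, and 56 of these windows held the start of the deposited interval on the same strand. Letters searched on either strand included GCATGCGC for NRF1, CCGGAAG for ETS factors such as GABP, AAGATGGC for YY1 and AAGGTCA for the oestrogen-related receptors. GCATGCGC stood in 12 of the 56 windows (21.4%), in 6.28% of 7489 windows of tested genes and in 3.27% of all 27305 windows. CCGGAAG stood in 18 (32.1%, against 22.5% and 10.7%), AAGATGGC in 9 (16.1%, against 6.72% and 3.03%) and AAGGTCA in 7 (12.5%, against 2.19% and 3.97%). Under Degrader the median log2 fold change was -0.12 for the 12 windows with GCATGCGC and -0.10 for the 44 without, and -0.12 for the 18 with CCGGAAG and -0.09 for the 38 without. It was -0.04 for the 9 with AAGATGGC and -0.10 for the 47 without, and -0.09 for the 7 with AAGGTCA and -0.10 for the 49 without. These differences were not tested. A match is a run of letters and not evidence of binding.

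The 250 bases before the start are shown for SDHB, whose window held the motifs of NRF1, ETS, YY1 and the oestrogen-related receptors, all 4. They are also shown for 3 members that fell under Degrader and for NDUFA2, the 1 that rose under GDC0068. Each is written 5′ to 3′ on the gene's strand, and capitals mark the matches of these 4 motifs. In SDHB they begin 224 bases (AAGGTCA), 200 bases (GCATGCGC) and 128 bases (CCGGAAG) before the start, and its AAGATGGC lies beyond the bases shown, at base 11 of the transcript. ATP5MC2 has GCATGCGC 40 bases before its start and UQCRQ has CCGGAAG 54 bases before, while the windows of NDUFB10 and NDUFA2 held none of the 4.
SDHB, chr1:17054033-17054282, minus strand: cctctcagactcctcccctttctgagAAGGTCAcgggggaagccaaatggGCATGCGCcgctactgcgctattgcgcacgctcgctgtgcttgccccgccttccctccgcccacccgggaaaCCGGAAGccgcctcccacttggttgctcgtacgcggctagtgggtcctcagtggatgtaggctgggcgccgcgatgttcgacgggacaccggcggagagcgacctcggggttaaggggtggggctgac
ATP5MC2, chr12:53676084-53676333, minus strand: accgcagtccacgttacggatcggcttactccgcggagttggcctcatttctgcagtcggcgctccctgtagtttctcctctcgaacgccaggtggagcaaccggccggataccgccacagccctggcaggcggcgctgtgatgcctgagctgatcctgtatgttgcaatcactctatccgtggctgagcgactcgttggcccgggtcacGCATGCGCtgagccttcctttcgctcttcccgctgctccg
UQCRQ, chr5:132866392-132866641, plus strand: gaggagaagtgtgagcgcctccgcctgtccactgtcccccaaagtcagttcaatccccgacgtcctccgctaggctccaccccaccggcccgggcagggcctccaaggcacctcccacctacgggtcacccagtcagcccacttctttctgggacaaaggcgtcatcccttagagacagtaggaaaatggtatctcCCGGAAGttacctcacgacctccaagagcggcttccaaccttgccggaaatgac
NDUFB10, chr16:1959288-1959537, plus strand: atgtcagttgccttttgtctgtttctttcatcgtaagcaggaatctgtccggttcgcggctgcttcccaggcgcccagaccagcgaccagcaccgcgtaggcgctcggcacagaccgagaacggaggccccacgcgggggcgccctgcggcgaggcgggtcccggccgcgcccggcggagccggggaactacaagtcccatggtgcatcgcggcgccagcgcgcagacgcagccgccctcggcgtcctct
NDUFA2, chr5:140647631-140647880, minus strand: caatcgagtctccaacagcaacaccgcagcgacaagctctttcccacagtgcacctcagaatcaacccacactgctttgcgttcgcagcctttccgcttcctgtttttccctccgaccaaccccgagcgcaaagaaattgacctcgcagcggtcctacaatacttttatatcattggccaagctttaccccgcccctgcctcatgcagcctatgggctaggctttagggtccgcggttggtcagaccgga

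Levels per length were compared as CPM per kb of interval, averaged over the 6 libraries with the SD over them. ATP5ME, a membrane subunit of ATP synthase, was highest at 27.7 ± 3.2, followed by CYC1, the haem-bearing cytochrome c1 of complex III, at 25.3 ± 1.3, and UQCRQ, a small complex III subunit, at 24.1 ± 3.4. The SD here spans libraries of all 3 arms, and the order of these 3 genes was not tested. NDUFB10 followed at 15.2 ± 2.9, then CYCS at 12.1 ± 1.5 and COX8A, a small complex IV subunit, at 11.6 ± 1.2. NDUFB3 was lowest at 0.649 ± 0.047 and NDUFS4, the longest interval at 122700 bp, was next at 0.797 ± 0.052. Among complex V's 3 genes for the same c ring subunit, ATP5MC2 was transcribed at 8.39 ± 0.73 CPM per kb. Engaged polymerase is usually densest near the start, so levels of genes of very different length are not strictly comparable. Several of these genes have processed pseudogenes, and how shared reads were counted is not given in the sources used here.

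**Figure D3:**
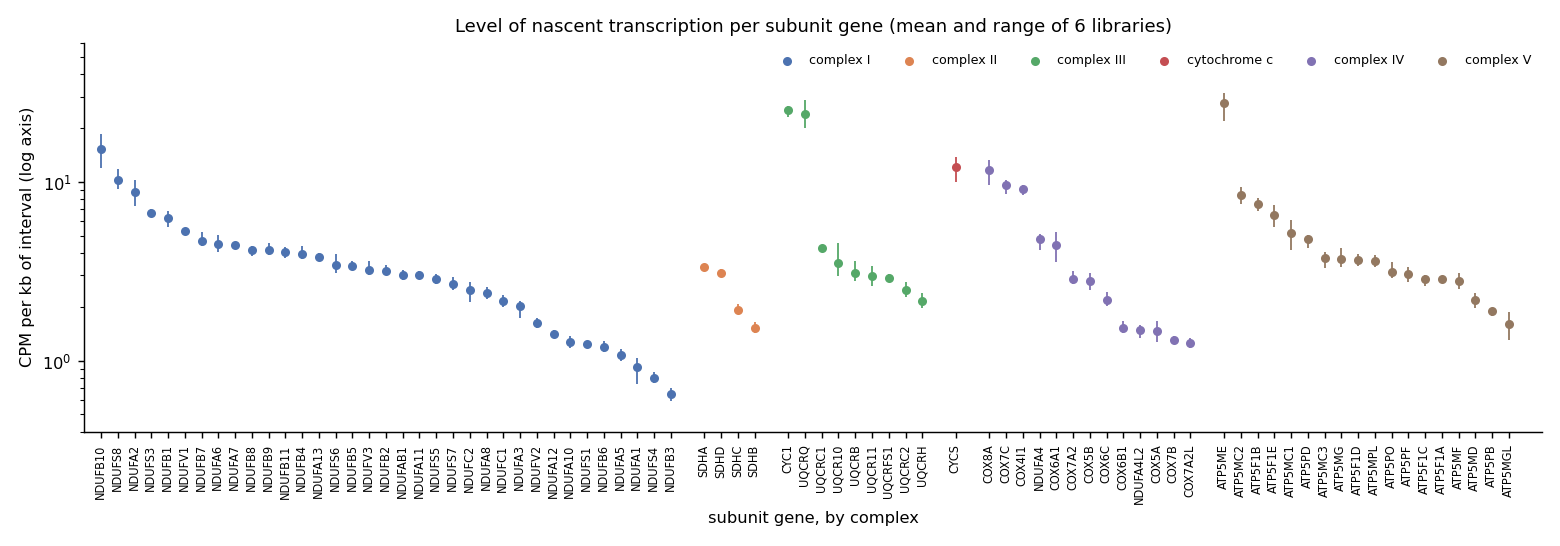
Mean level of the subunit genes named on the x axis in CPM per kb of interval (y axis, log scale), ordered within each complex, with bars from the lowest to the highest of the 6 libraries. ATP5ME, CYC1 and UQCRQ lie at the top, and the bars are short compared with the spread between genes.

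Complex I takes electrons from NADH, and its 36 nuclear genes comprise 7 for core subunits, which carry out electron transfer, and 29 for accessory subunits. NDUFB10, an accessory subunit of the membrane arm, had the lowest fold change of all members (chromosome 16, 1959576 to 1961975, plus strand, ENSG00000140990). Its level was 44.3 and 44.7 CPM in DMSO, 38.5 and 32.0 in GDC0068, and 31.6 and 28.5 in Degrader. All 4 drug libraries lay below both DMSO libraries, and both Degrader libraries below both GDC0068 libraries. Its log2 fold change under Degrader was -0.57 ± 0.087 (SE, adjusted p = 0.00184). Under GDC0068 the log2 fold change was -0.34 ± 0.087 (adjusted p = 0.0544, with the block 4.31e-04), and -0.22 without GDC0068 replicate 2 (adjusted p = 0.225).

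NDUFS8, a core subunit that carries iron-sulphur clusters, had 70.5 and 66.4 CPM in DMSO, 62.3 and 54.9 in GDC0068, and 58.0 and 54.0 in Degrader (chromosome 11, 68030692 to 68036644). It fell by 0.29 ± 0.069 under Degrader (adjusted p = 0.0170), and under GDC0068 its log2 fold change was -0.23 ± 0.069 (adjusted p = 0.0967, with the block 0.00102), or -0.14 without GDC0068 replicate 2 (adjusted p = 0.358). The intervals of MIR4691 and MIR7113 lie inside it on the same strand. Both drugs' libraries lay below DMSO, without a gap between the drugs.

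NDUFA2, an accessory subunit of the arm that faces the matrix, went the other way. It had 17.9 and 17.1 CPM in DMSO, 23.8 and 23.3 in GDC0068, and 21.1 and 20.2 in Degrader (chromosome 5, 140645285 to 140647630). The 3 arms did not overlap, and GDC0068 was highest. It rose by 0.43 ± 0.085 under GDC0068 (adjusted p = 0.0238), and under Degrader its log2 fold change was 0.24 ± 0.086 (adjusted p = 0.0832, with the block 0.0268). TMCO6 overlaps it on the opposite strand and had log2 fold changes of 0.13 under GDC0068 (adjusted p = 0.458) and 0.20 under Degrader (adjusted p = 0.157). The sources used here do not give whether counting used strand, so reads of these 2 genes may not be told apart.

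**Figure D4:**
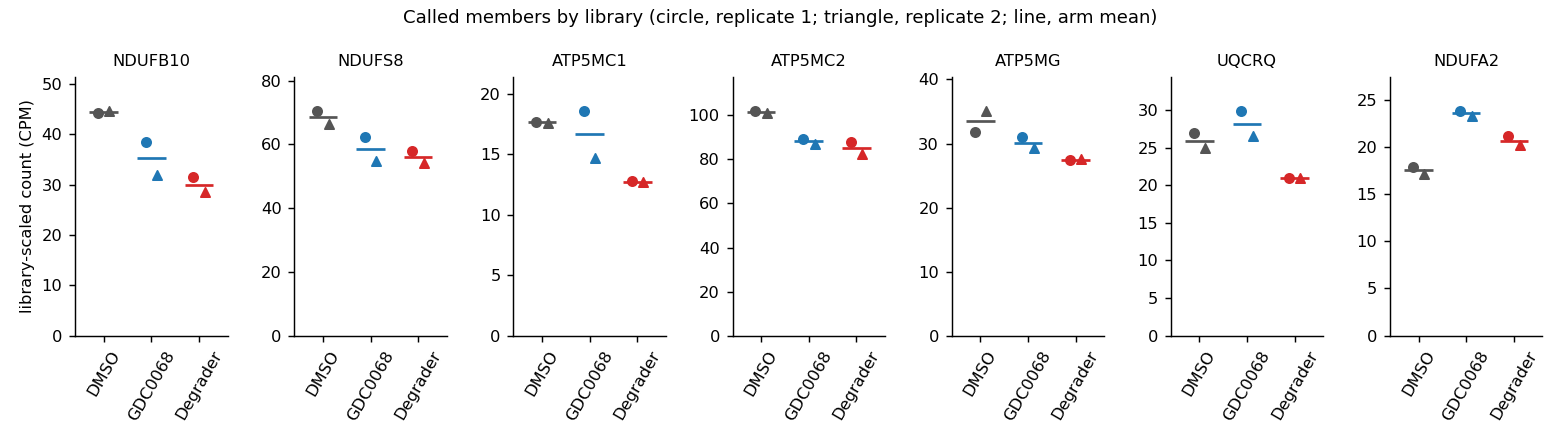
Level in CPM (y axis, from 0, a separate scale per gene) of the 7 members called against DMSO without a block, in each library of the 3 arms; circles are experiment 1, triangles experiment 2 and lines arm means. Degrader libraries lie below both DMSO libraries in 6 genes and above them in NDUFA2.

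Among the other complex I genes, NDUFA1 had the highest log2 fold change under Degrader, 0.38 ± 0.15, but did not pass (adjusted p = 0.119, with the block 0.0638). Its levels were low, 3.55 and 4.01 CPM in DMSO, 4.68 and 4.31 in GDC0068, and 4.98 and 4.84 in Degrader. NDUFS6 and NDUFA10, accessory subunits, fell with the block under both drugs. The log2 fold changes of NDUFS6 were -0.18 and -0.24 (adjusted p = 0.0151 and 0.00374), and those of NDUFA10 were -0.13 and -0.16 (0.0255 and 0.0112). Neither gene passed without it. NDUFS6 had 59.4 and 54.9 CPM in DMSO, 47.7 and 49.2 in GDC0068, and 54.7 and 46.5 in Degrader, so the Degrader libraries lay apart. Without the block its log2 fold change under Degrader was -0.30 without Degrader replicate 1 (adjusted p = 0.0405) and -0.07 without Degrader replicate 2 (0.658). Core genes had a median of 0.01 under Degrader, which turned to as low as -0.02 without DMSO replicate 1 or Degrader replicate 2, and accessory genes of -0.06.

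Complex II, succinate dehydrogenase, had no member called without the block (p under 0.05 unadjusted for 1 of the 4 under Degrader and 0 under GDC0068). SDHA, the flavoprotein that oxidises succinate, had 129 and 127 CPM in DMSO, 127 and 132 in GDC0068, and 126 and 125 in Degrader. SDHB, the iron-sulphur subunit shown above, had 52.6 and 56.2, then 50.1 and 53.5, then 58.3 and 52.9 CPM in the same order. For both genes the differences were within the spread between libraries or near it, with log2 fold changes between -0.07 and 0.03. SDHC, a membrane anchor, had 92.4 and 88.7 CPM in DMSO, 90.7 and 94.5 in GDC0068, and 95.4 and 101 in Degrader, a log2 fold change of 0.12 ± 0.053 under Degrader (adjusted p = 0.162, with the block 0.0315) and of 0.07 without Degrader replicate 2 (adjusted p = 0.633). SDHD, the other anchor, had log2 fold changes of 0.07 and -0.04 under Degrader and GDC0068.

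In complex III, UQCRQ fell under Degrader. It had 27.0 and 24.9 CPM in DMSO, 29.9 and 26.5 in GDC0068, and 21.0 and 21.0 in Degrader (chromosome 5, 132866646 to 132867687, the shortest member interval at 1042 bp). Both Degrader libraries lay below all others, while GDC0068 and DMSO overlapped. The log2 fold change was -0.31 ± 0.090 under Degrader (adjusted p = 0.0395) and 0.12 ± 0.088 under GDC0068 (adjusted p = 0.502). The start site of GDF9 lies 209 bp away on the other strand, and GDF9 had log2 fold changes of -0.05 and 0.07.

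UQCR10, another small complex III subunit, had 9.93 and 10.5 CPM in DMSO, 13.9 and 11.5 in GDC0068, and 9.44 and 9.09 in Degrader. It was above DMSO in both GDC0068 libraries, with a log2 fold change of 0.31 ± 0.12 (adjusted p = 0.175, with the block 0.0453), or 0.16 without GDC0068 replicate 1 (adjusted p = 0.556). AC004882.4 overlaps UQCR10 on the opposite strand, with log2 fold changes of 1.41 under GDC0068 (adjusted p = 0.148) and 1.8 under Degrader (adjusted p = 0.0268). The call of AC004882.4 under Degrader did not hold in every fit with a library left out. The use of strand in counting is not given, so reads of this pair may not be told apart. The core protein gene UQCRC2, the hinge protein gene UQCRH and UQCR11 lay below DMSO under GDC0068, with log2 fold changes of -0.21, -0.23 and -0.26. They passed with the block (adjusted p = 0.00115, 0.0217 and 0.0152) and not without it (0.0549, 0.112 and 0.109). Under Degrader these 3 lay at -0.10, -0.10 and -0.13 and did not pass in either fit. CYC1 had 63.7 and 63.7 CPM in DMSO, 65.3 and 62.2 in GDC0068, and 61.0 and 56.4 in Degrader, a log2 fold change of -0.12 ± 0.058 under Degrader (adjusted p = 0.199).

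CYCS, the mobile electron carrier between complexes III and IV, had 27.0 and 22.6 CPM in DMSO, 26.2 and 24.9 in GDC0068, and 19.6 and 21.0 in Degrader. Both Degrader libraries were below the other 4, but the DMSO libraries also differed from each other. Its log2 fold change was -0.29 ± 0.099 under Degrader (adjusted p = 0.0695, with the block 0.00977) and 0.04 ± 0.098 under GDC0068 (adjusted p = 0.869). Without DMSO replicate 1 the value under Degrader was -0.16 (adjusted p = 0.494).

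Complex IV had no member called in any comparison without the block (2 of the 13 had an unadjusted p under 0.05 with Degrader, 1 with GDC0068 and 3 in the direct comparison). NDUFA4 had 34.0 and 38.1 CPM in DMSO, 37.8 and 40.7 in GDC0068, and 41.9 and 41.7 in Degrader, a log2 fold change of 0.21 ± 0.072 under Degrader (adjusted p = 0.0665, with the block 0.00667) and of 0.13 without DMSO replicate 1 (adjusted p = 0.444). Its paralog NDUFA4L2 had 8.37 and 8.93 CPM in DMSO, 8.22 and 8.58 in GDC0068, and 7.49 and 8.61 in Degrader, so the arms overlapped. COX4I1, the regulatory subunit that binds ATP, had 70.9 and 69.7 CPM in DMSO, 66.8 and 67.1 in GDC0068, and 62.5 and 65.9 in Degrader. Its log2 fold change under Degrader was -0.13 ± 0.053 (adjusted p = 0.119, with the block 0.0257). COX5A had the lowest fold change under GDC0068, -0.28 ± 0.084 (adjusted p = 0.0877, with the block 0.00986).

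The remaining named complex IV genes did not pass against DMSO in either fit. COX8A lay lowest under Degrader, at 21.4 and 18.4 CPM against 23.6 and 21.9 in DMSO, a log2 fold change of -0.19 ± 0.10 (adjusted p = 0.230), which was -0.31 without Degrader replicate 1 and -0.09 without Degrader replicate 2. COX7A2 and COX7A2L, related in sequence, had log2 fold changes of 0.09 and -0.07 under Degrader and -0.06 and 0.10 under GDC0068. COX6A1, COX6B1, COX7B and COX7C lay between -0.16 and 0.13 under Degrader. Tissue-restricted isoforms such as COX4I2, COX6A2 and COX7A1 were not among the members.

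Complex V held 3 of the 6 genes that fell under Degrader, 2 of them among the 3 genes that encode the same c subunit of the rotating membrane ring. ATP5MC1 had 17.7 and 17.6 CPM in DMSO, 18.6 and 14.7 in GDC0068, and 12.8 and 12.7 in Degrader (chromosome 17, 48892838 to 48895871). Degrader lay below all other libraries, and the GDC0068 libraries fell on either side of DMSO. Its log2 fold change was -0.47 ± 0.12 under Degrader (adjusted p = 0.0181) and -0.09 ± 0.11 under GDC0068 (adjusted p = 0.703). SUMO2P17 overlaps it on the opposite strand at a higher level, 78.8 to 93.6 CPM over the 6 libraries, with log2 fold changes of 0.07 under Degrader (adjusted p = 0.451) and 0.15 under GDC0068 (adjusted p = 0.194).

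ATP5MC2, the most transcribed of the c subunit genes per kb, had 102 and 101 CPM in DMSO, 89.4 and 86.9 in GDC0068, and 87.9 and 82.2 in Degrader (chromosome 12, 53665166 to 53676074). All 4 drug libraries were below DMSO and the drugs overlapped. It fell by 0.25 ± 0.052 under Degrader (adjusted p = 0.00831), and under GDC0068 its log2 fold change was -0.20 ± 0.052 (adjusted p = 0.0572, with the block 6.46e-04). The third gene, ATP5MC3, had 14.1 and 14.6 CPM in DMSO, 14.7 and 12.6 in GDC0068, and 14.4 and 11.9 in Degrader. Its log2 fold change under Degrader was -0.12 ± 0.12 (adjusted p = 0.529), and the arms overlapped.

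ATP5MG, a membrane subunit at the interface of ATP synthase dimers, had 31.8 and 35.1 CPM in DMSO, 31.0 and 29.3 in GDC0068, and 27.4 and 27.6 in Degrader (chromosome 11, 118401622 to 118409847). Both Degrader libraries were lowest. It fell by 0.28 ± 0.077 under Degrader (adjusted p = 0.0303), and under GDC0068 its log2 fold change was -0.15 ± 0.077 (adjusted p = 0.303). All 6 genes of this group of membrane subunits outside the c ring had log2 fold changes below 0 under both drugs, -0.28 to -0.06 with Degrader and -0.33 to -0.08 with GDC0068. The lowest under GDC0068 was ATP5MGL at -0.33 ± 0.21 (adjusted p = 0.423), which had 45 to 73 counts in a library and lies inside CYB5R3 on the same strand. ATP5MF was next at -0.23 (adjusted p = 0.157, with the block 0.0425). Under Degrader ATP5ME passed with the block (-0.26, adjusted p = 5.83e-04, without it 0.108), as did ATP5MD (-0.24, adjusted p = 0.0461, without it 0.134). ATP5ME had 57.4 and 52.5 CPM in DMSO, 55.2 and 49.1 in GDC0068, and 51.7 and 40.3 in Degrader. Its Degrader libraries lay apart, and without the block the log2 fold change was -0.45 without Degrader replicate 1 (adjusted p = 0.0129) and -0.10 without Degrader replicate 2 (0.592).

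The 5 genes of the F1 part, which holds the catalytic sites, had medians of 0.00 under Degrader and -0.04 under GDC0068. ATP5F1A, which encodes the alpha subunit, had 38.3 and 42.0 CPM in DMSO, 39.4 and 38.6 in GDC0068, and 41.8 and 41.8 in Degrader, with log2 fold changes of 0.06 and -0.04. ATP5F1E, the epsilon subunit, lay lowest of them at -0.22 and -0.23, which passed with the block (adjusted p = 0.00411 and 0.00652) and not without it (0.0828 and 0.144). Under GDC0068 its value was -0.36 without GDC0068 replicate 1 (adjusted p = 0.0475) and -0.11 without GDC0068 replicate 2 (0.497). The 4 genes of the peripheral stalk had medians of -0.12 and -0.08. ATP5PO, the stalk subunit that confers oligomycin sensitivity, was lowest under GDC0068 at -0.24 (adjusted p = 0.0765, with the block 0.00429).

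Set directly against GDC0068, Degrader gave no called member in the edgeR fit, where 0.266% of all genes were called. At an unadjusted p under 0.05 there were 13, DESeq2 called 1 (UQCRQ), and the fit with the block called 9, where 10.4% of all genes were called (5.35% lower and 5.03% higher). The 9 were NDUFS4, which was higher with Degrader, and ATP5MC1, ATP5ME, COX8A, CYCS, NDUFB10, NDUFC2, UQCR10 and UQCRQ, which were lower. The median difference over the 82 members was 0.00, and single members ranged from -0.45 to 0.27. The concentrations of the compounds differ, and a p above the threshold does not show that they act alike.

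The lowest values were those of the complex III genes UQCR10, -0.45 ± 0.12 (adjusted p = 0.136, with the block 0.00814), and UQCRQ, -0.42 ± 0.090 (adjusted p = 0.0780, with the block 7.48e-04). ATP5MC1 lay at -0.38 ± 0.12, CYCS at -0.33 ± 0.10 and NDUFC2, an accessory subunit of complex I, at -0.30 ± 0.091. In each of these 5 genes both Degrader libraries lay below both GDC0068 libraries. COX6A1 of complex IV lay at -0.33 ± 0.12 and did not pass in either fit (adjusted p = 0.251, with the block 0.0501). Leaving out 1 library, with no block, moved 4 of the 9 values by more than 1.5 times. ATP5MC1 moved to -0.20 and NDUFB10 from -0.23 to -0.09 without GDC0068 replicate 1, and COX8A from -0.27 to -0.17 without Degrader replicate 2. ATP5ME, at -0.18, moved to -0.09 without GDC0068 replicate 1, to -0.36 without Degrader replicate 1 and to -0.01 without Degrader replicate 2. NDUFB10 lay at -0.35 without GDC0068 replicate 2. NDUFS4, an accessory subunit of the matrix arm, had 91.8 and 92.2 CPM in GDC0068 and 105 and 106 in Degrader, with 95.1 and 95.7 in DMSO. The arms did not overlap, and the difference between the drugs was 0.20 ± 0.047 (adjusted p = 0.0984, with the block 8.83e-04). Against DMSO its log2 fold change under Degrader was 0.15 ± 0.047 (adjusted p = 0.0509, with the block 0.00288).

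The direct difference between the drugs varied with interval length. The 82 members had a median length of 8266 bp, compared with 14391 bp over all genes tested. Over the members, Spearman's rho between length and the log2 difference of Degrader from GDC0068 was 0.538, compared with 0.209 over all 19902 genes and 0.310 over the 13897 with a mean of at least 10 CPM. The points share the same 4 libraries, and genes are not independent replicates, so rho is a description. The 19 members under 5 kb had a median difference of -0.18 (quartiles -0.30 and -0.09), and the 11 members of 20 kb or more had 0.06 (0.02 and 0.11). Genes of at least 10 CPM had medians of -0.11 under 5 kb (2042 genes) and 0.02 at 20 kb or more (7759 genes), so the same order held beyond the respiratory chain. Against DMSO, rho over the members was 0.351 for Degrader and -0.183 for GDC0068. Of the 19 members under 5 kb 3 fell under Degrader, compared with 329 of the 6086 tested genes of that length. Of genes of that length with at least 10 CPM 250 of 2042 fell, but the 19 members were not cut at that level.

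**Figure D5:**
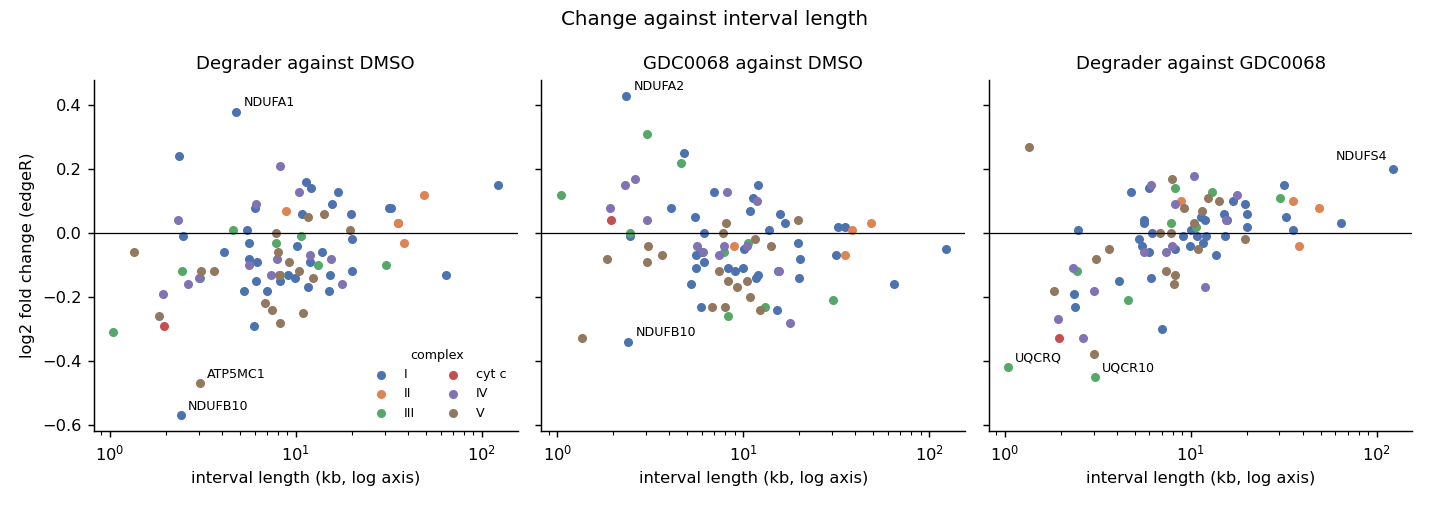
Log2 fold change (y axis) of each subunit gene against its interval length in kb (x axis, log scale) in the 3 comparisons, coloured by complex. In the right panel, Degrader against GDC0068, the shortest genes lie mostly below 0 and the longest, NDUFS4, lies at 0.20.

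Of the 82 members, 36 have another gene starting within 1000 bp on the other strand, and partners of such pairs did not always share their values. Under Degrader SDHD had a log2 fold change of 0.07, while TIMM8B, a chaperone of the inner membrane import pathway whose start lies 143 bp away, fell by 0.41 (adjusted p = 0.0262). ATP5MD (-0.24, not called without the block) starts 224 bp from PDCD11, which fell by 0.40 (adjusted p = 0.00356) and lay at -0.33 under GDC0068 (adjusted p = 0.0296). ATP5ME (-0.26, likewise) starts 231 bp from MYL5, which rose by 0.29 (adjusted p = 0.00332). NDUFC1 lay at 0.16 (adjusted p = 0.262) beside NAA15, which fell by 0.26 (adjusted p = 0.00636). COX4I1 lay at -0.13 beside EMC8, which fell by 0.23 (adjusted p = 0.0135). TIMM8B and EMC8 did not pass without DMSO replicate 1, nor with some other libraries left out. NAA15 did not pass without Degrader replicate 2. Other partners that rose under Degrader were CCDC127 beside SDHA (0.25, adjusted p = 0.00865) and LINC00649 beside ATP5PO (0.42, adjusted p = 0.0251). AC004882.4 beside UQCR10 also rose, by 1.8 (adjusted p = 0.0268), or 1.36 to 2.12 with a library left out. The calls of MYL5, CCDC127, LINC00649 and AC004882.4 under Degrader did not hold in every fit with a library left out. Neither did that of PDCD11 under GDC0068. These pairs were picked for a called partner, after the values were seen, and whether members and partners differ was not tested. The share of partners called was not compared with that of all genes.

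Genes that act around the chain were read from 4 further lists. Of all genes of at least 10 CPM, 19.8% were called under Degrader and 4.79% under GDC0068, or 38.8% and 22.9% with the block. Of 22 tested regulators of respiratory chain and mitochondrial transcription, 6 fell under Degrader and none rose (27.3%, against 15.3% of all genes), and 2 fell under GDC0068 (9.09%, against 3.58%). With the block 11 (50.0%) of them were called under Degrader, 8 lower and 3 higher, against 30.7% of all genes. Under GDC0068 7 (31.8%) were then called, 6 lower and 1 higher, against 17.8%. PPARGC1A, of the PGC-1 family, was among those higher, at 0.40 under Degrader (adjusted p = 0.0726, with the block 0.00223). Under GDC0068 it lay at 0.31 (adjusted p = 0.237, with the block 0.0293). PPARGC1B, a coactivator of the PGC-1 family, had 78.4 and 73.6 CPM in DMSO, 65.7 and 59.5 in GDC0068, and 47.1 and 44.9 in Degrader. The 3 arms did not overlap. It fell by 0.72 ± 0.064 under Degrader (adjusted p = 1.06e-04) and by 0.28 ± 0.063 under GDC0068 (adjusted p = 0.0359), and the log2 difference of Degrader from GDC0068 was -0.44 ± 0.065 (adjusted p = 0.0220). The fall under Degrader passed under every alternative tried, while the call between the drugs was lost without GDC0068 replicate 1 (adjusted p = 0.180), Degrader replicate 1 (0.124) or Degrader replicate 2 (0.164), and the call under GDC0068 without either DMSO library (0.213 and 0.0855) or GDC0068 replicate 2 (0.161).

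The other regulators that fell under Degrader were PPRC1, a PGC-1 relative (-0.41, adjusted p = 0.00587), ESRRA, which encodes oestrogen-related receptor alpha (-0.33, adjusted p = 0.00636), NRF1 (-0.22, adjusted p = 0.0118), LRPPRC, which stabilises mitochondrial mRNAs (-0.25, adjusted p = 0.00672), and MTERF3, a mitochondrial transcription factor (-0.24, adjusted p = 0.0485). LRPPRC also fell under GDC0068 (-0.23, adjusted p = 0.0299). Under GDC0068, PPRC1 lay at -0.30 (adjusted p = 0.0614, with the block 2.9e-06) and NRF1 at -0.18 (0.0652, with the block 0.00109). ESRRA lay at -0.11 and did not pass in either fit (0.378, with the block 0.152). Without DMSO replicate 1 none of these 5 passed under Degrader, nor did LRPPRC under GDC0068. Apart from LRPPRC under Degrader, each of these calls was also lost with at least 1 other library left out.

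Of 49 assembly factors tested, 2 rose and 4 fell under Degrader (12.2%, against 15.3% of all genes), and 1 rose and 1 fell under GDC0068 (4.08%, against 3.58%). With the block 12 (24.5%) and 4 (8.16%) were called, against 30.7% and 17.8% of all genes. Of genes of at least 10 CPM, 19.8% and 4.79% were called without the block, and 38.8% and 22.9% with it. NDUFAF1, which helps assemble complex I, had 43.8 and 46.1 CPM in DMSO, 57.7 and 55.1 in GDC0068, and 51.5 and 55.1 in Degrader, and rose by 0.33 under GDC0068 (adjusted p = 0.0179) and by 0.25 under Degrader (adjusted p = 0.0196). UQCC2, an assembly factor of complex III, fell from 92.8 and 99.1 CPM in DMSO to 79.8 and 78.7 in GDC0068 (-0.28, adjusted p = 0.0217) and 72.4 and 75.9 in Degrader (-0.37, adjusted p = 0.00133). COA7, SURF1 and PET117, which act on complex IV, fell under Degrader by 0.39, 0.29 and 0.28 on the log2 scale, and NUBPL, which delivers iron-sulphur clusters to complex I, rose by 0.17. Of these calls under Degrader, that of UQCC2 passed under every alternative tried, and the other 5 did not pass without DMSO replicate 1. Each of those 5 was also lost with at least 1 other library left out. Both calls under GDC0068 were lost with any of the 4 libraries compared left out (adjusted p up to 0.158 for NDUFAF1 and 0.138 for UQCC2).

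Of 18 genes of the citric acid cycle and pyruvate dehydrogenase, 2 fell under Degrader (11.1%, against 15.3% of all genes) and none passed under GDC0068 (4 at an unadjusted p under 0.05). With the block 5 (27.8%) and 4 (22.2%) were called, against 30.7% and 17.8% of all genes. For this list and the next, the shares of genes of at least 10 CPM were 19.8% and 4.79%, or 38.8% and 22.9% with the block. IDH3A, the catalytic subunit of NAD-dependent isocitrate dehydrogenase, had 33.8 and 29.8 CPM in DMSO, 26.9 and 27.4 in GDC0068, and 21.6 and 21.1 in Degrader, and fell by 0.58 ± 0.085 under Degrader (adjusted p = 0.00138). CS, citrate synthase, fell by 0.22 (adjusted p = 0.0133). Of 13 genes of ubiquinone synthesis, 2 rose and 1 fell under Degrader (23.1%, against 15.3% of all genes), and 1 rose under GDC0068 (7.69%, against 3.58%). With the block 4 (30.8%) and 2 (15.4%) were called, against 30.7% and 17.8%. COQ8A, a regulator of that pathway, had 49.7 and 46.2 CPM in DMSO, 63.0 and 60.1 in GDC0068, and 69.5 and 66.7 in Degrader, and rose by 0.50 ± 0.059 under Degrader (adjusted p = 4.71e-04) and by 0.36 ± 0.060 under GDC0068 (adjusted p = 0.0115). COQ5 rose by 0.17 and PDSS1, which makes the side chain, fell by 0.28 under Degrader (adjusted p = 0.0418 and 0.0252). The calls of IDH3A and COQ8A under Degrader passed under every alternative, and that of COQ8A under GDC0068 was lost with any of the 4 libraries compared left out (adjusted p up to 0.0855). CS, COQ5 and PDSS1 did not pass without DMSO replicate 1, and each also lost its call with at least 1 other library left out. Apart from PPARGC1B, no gene of these 4 lists was called between the drugs without the block.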

How the data were processed

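PRO-seq counts per gene interval were used as the authors deposited them in 1 table, with 1 column per library, as whole numbers that sum to a different total in each. Per the submitters' processing notes, cutadapt 1.14, Bowtie 1.2.2, SAMtools 1.3.1, HISAT2 2.2.1 and limma were used with the builds hg38, GRCh38 and dm3, and their roles, the counting step, any spike-in and the use of strand are not given in the sources used here. Without a spike-in scaling, a change common to all genes is not seen. Starts are written counting from 1.

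In R 4.3.3, edgeR 4.0.16 kept 19902 genes (filterByExpr, minimum count 10, minimum total 15), scaled libraries by TMM and fitted all 6 libraries with a term per arm (quasi-likelihood, 3 residual degrees of freedom, common biological variation 5.51%). Calls are at an adjusted p under 0.05 (Benjamini-Hochberg over the genes tested). SD is over 2 libraries of an arm unless stated, and ± beside a log2 fold change is the SE. The steps were tested on simulated data.

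The labels number the replicates, and each number is taken as 1 of the 2 independent experiments of the design text. Deviations of same-numbered libraries correlated by 0.177 to 0.220 over all genes in the 3 pairs of arms. Over genes of at least 10 CPM they correlated by 0.419 to 0.492. The numbers were therefore taken as pairs, and the replicate block is given where it changes the call of a named member. For the further lists it is given as counts and for some of the genes.

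The members, the lists and the naming rule were chosen with earlier results of these data known. Named were the called members, the highest and lowest fold change per complex and comparison, the highest and lowest levels, paralogs, complex II, CYC1, CYCS, and up to 2 called genes of each further list per comparison. Genes called only with the block, the further called genes of the lists and neighbouring genes were named after their values were seen. One member is counted in the totals and is otherwise not reported here. Alternatives were RLE and upper-quartile scaling, DESeq2 1.42.0, no filter, a robust fit, a fit of the 4 libraries compared, the block, and leaving out each library.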

Additional observations from a re-analysis of the deposited data

How the results depend on the processing

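The median over the 82 members kept its direction against DMSO under each alternative run. Medians by complex were also run under these alternatives, a choice made after seeing the data. Under GDC0068 the median of complex IV turned to 0.02 and that of the F1 part to 0.02 without DMSO replicate 2, and that of complex II to 0.01 without GDC0068 replicate 1. Under Degrader the core genes of complex I turned to as low as -0.02 without DMSO replicate 1 or Degrader replicate 2, and the F1 part, at 0.00, ranged from -0.12 to 0.12. With the replicate block, 18 members instead of 6 were called under Degrader, 15 instead of 1 under GDC0068 and 9 instead of 0 between the drugs; the medians were within 0.01 of those without it. Under GDC0068, DESeq2 called 2 members and the robust fit 4, and between the drugs DESeq2 called 1. Leaving out 1 library gave 1 to 7 members called under Degrader, 0 to 2 under GDC0068 and 0 between the drugs. The count under Degrader was 1, NDUFB10, without DMSO replicate 1 and without Degrader replicate 2. NDUFB10 was called under every alternative, while ATP5MC2 and NDUFS8 lost the call without either of those libraries (adjusted p up to 0.0938 and 0.132). ATP5MC1, ATP5MG and UQCRQ lost it with any of the 4 libraries compared left out (up to 0.0945, 0.195 and 0.255), as did NDUFA2 under GDC0068 (up to 0.141), and UQCRQ was not called by DESeq2 (0.0521). The members' median ranged from -0.10 to -0.06 under Degrader and from -0.09 to -0.03 under GDC0068 with a library left out. Between the drugs it was -0.01 with upper-quartile scaling, 0.01 with no filter, and -0.02 to 0.01 with a library left out. With 2 libraries per arm and a median of 774 to 989 counts per member, most differences here are close to the spread between libraries.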
